A study of Mus musculus with 6 samples.

Results

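The epidermal differentiation complex is a cluster of genes on mouse chromosome 3 that code for the building blocks of the cornified envelope, the crosslinked protein shell that replaces the plasma membrane of keratinocytes in their last stage of differentiation. The genes described here are 45 envelope genes of that cluster, taken by symbol and without the S100a genes, out of 54232 gene IDs counted. They comprise 20 late cornified envelope genes (Lce), 14 small proline-rich genes (Sprr), 7 fused-type S100 genes and 4 other envelope genes, and each symbol matched 1 gene ID. They span 1391.71 kb (chr3:92080271-93471980, GRCm38). The counts are polyA RNA-seq of the esophagus of mice given the carcinogen 4-nitroquinoline 1-oxide (4-NQO), in 2 groups of 3 libraries. Every mouse, in both groups, drank 100 µg/ml 4-NQO from 8 weeks of age for 16 weeks and then normal water for 12 weeks. During the last 2.5 weeks one group received 10 µg of DTA-1, an agonist antibody against the co-stimulatory receptor GITR, 2 times a week, and the other received the same amount of isotype control antibody. The esophagus was peeled and enriched for invading tumor cells, and the strain of the mice is not given in the sources used here.

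In squamous epithelium, cells leave the basal layer, switch keratins and then make envelope precursors, which transglutaminases join into an insoluble layer under the membrane. Involucrin, envoplakin and periplakin lay down a scaffold, small proline-rich proteins act as crossbridges, and loricrin and the late cornified envelope proteins are added in bulk. The esophagus of rodents, unlike that of humans, is cornified, so envelope transcripts are a regular part of its upper layers.

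Total counts ran from 23147873 to 29065162 a library, and 3 reads correspond to 0.108 to 0.141 CPM (read counts relative to library size, with sizes scaled by the trimmed mean of M values, TMM). Krt13 and Krt4, the keratin pair of the esophageal suprabasal layers, were present in every library, Krt13 at 9923, 17325 and 19999 CPM with isotype and 10427, 2854 and 2921 CPM with DTA-1 and Krt4 at 4170.1, 10329 and 12768 CPM with isotype and 5038, 1699.8 and 868 CPM with DTA-1, in order of replicate number, which is the order of all values below. Some libraries stood apart in transcripts of other tissues. The 10 glandular stomach markers, all found, summed to 2506 CPM in isotype replicate 3 and 302 CPM in DTA-1 replicate 2, against 0.983 to 19.1 CPM in the other 4 libraries. The 5 red cell markers summed to 2891 CPM in DTA-1 replicate 2 and to 85.0 to 171 CPM elsewhere. The 15 striated muscle markers summed to 73231, 52582 and 116896 CPM with isotype and 125130.3, 179686 and 131110.2 CPM with DTA-1, with no overlap between the groups. The part of these in the results below was not tested. In bulk tissue, fewer cells of a type and less RNA per cell cannot be told apart. Whether every library comes from its own mouse is not said in the labels, so the p-values reflect the spread among these samples, which may be technical.

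Envelope transcripts were scarcer on average in the DTA-1 libraries, in all 4 families, but no single member passed the main test. The 45 genes together made up 0.910% ± 0.294 of counts with isotype and 0.308% ± 0.160 with DTA-1 (SD, n = 3 each). Their summed level was 6153, 10776 and 8700.3 CPM with isotype and 4709.6, 1541 and 3376 CPM with DTA-1, and all DTA-1 libraries were below all isotype libraries. The mean was 2.66-fold higher with isotype. Of the 39 members with enough reads to be tested, 39 had a negative fold change (DTA-1 over isotype), against 52.9% of the 15763 genes tested. Their median was -1.69 on the log2 scale, against -0.03 over all genes. In 19 of the 39 the groups did not overlap, all DTA-1 libraries being lower, which was so for 9.36% of all genes tested.

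edgeR's quasi-likelihood test with Benjamini-Hochberg adjustment over all genes called 0 of the 39 members and 0 of all genes (0.0%). The smallest adjusted p was 0.39, and 28 members shared it. These 28 were also the members with an unadjusted p under 0.05, all on the lower side, while 7.52% of all genes were there. limma-voom called 0 as well, with 25 members at an unadjusted p under 0.05 against 8.49% of all genes. DESeq2 called 7 of the 41 members to which it gave an adjusted p, all lower with DTA-1, against 0.81% of all genes (0.252% were called higher). Those were Lce1h, Lce1k, Lce3a, Lce3b, Lce3e, Lce3f and Lor. That count moved with the libraries. Leaving out isotype replicates 1, 2 and 3 in turn gave 21, 0 and 6 called members, against 0.948%, 0.195% and 2.11% of all genes. Leaving out DTA-1 replicates 1, 2 and 3 in turn gave 27, 2 and 3, against 10.4%, 0.229% and 0.222%. The edgeR count at an unadjusted p under 0.05 was 10 without isotype replicate 2 (3.5% of all genes), 24 with DTA-1 replicate 2 left out (3.56%) and 28 with DTA-1 replicate 1 left out (15.2%). In that last fit edgeR called 3.31% of all genes lower after adjustment, and 0 members.

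2 libraries set the outer limits of most members. DTA-1 replicate 2 was the lowest library for 37 of the 39, where 20.1% of all genes had their lowest value there. Isotype replicate 2 was the highest for 29, isotype replicate 1 for 7, DTA-1 replicate 1 for 2 and isotype replicate 3 for 1. An isotype library was the highest for 51.3% of all genes. DTA-1 replicate 1 lay below all isotype libraries in 26 members, replicate 2 in 37 and replicate 3 in 28. The shares of all genes for these counts, and for each single isotype library as the highest, were not computed. The counts therefore only describe the members. Without DTA-1 replicate 2 there were 19 members with no overlap between the groups, against 11.0% of all genes, and without isotype replicate 3 there were 24, against 20.4%. Over all 6 libraries left out in turn the count ran from 19 to 28, the highest without isotype replicate 1, against 14.2% of all genes.

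**Figure D1:**
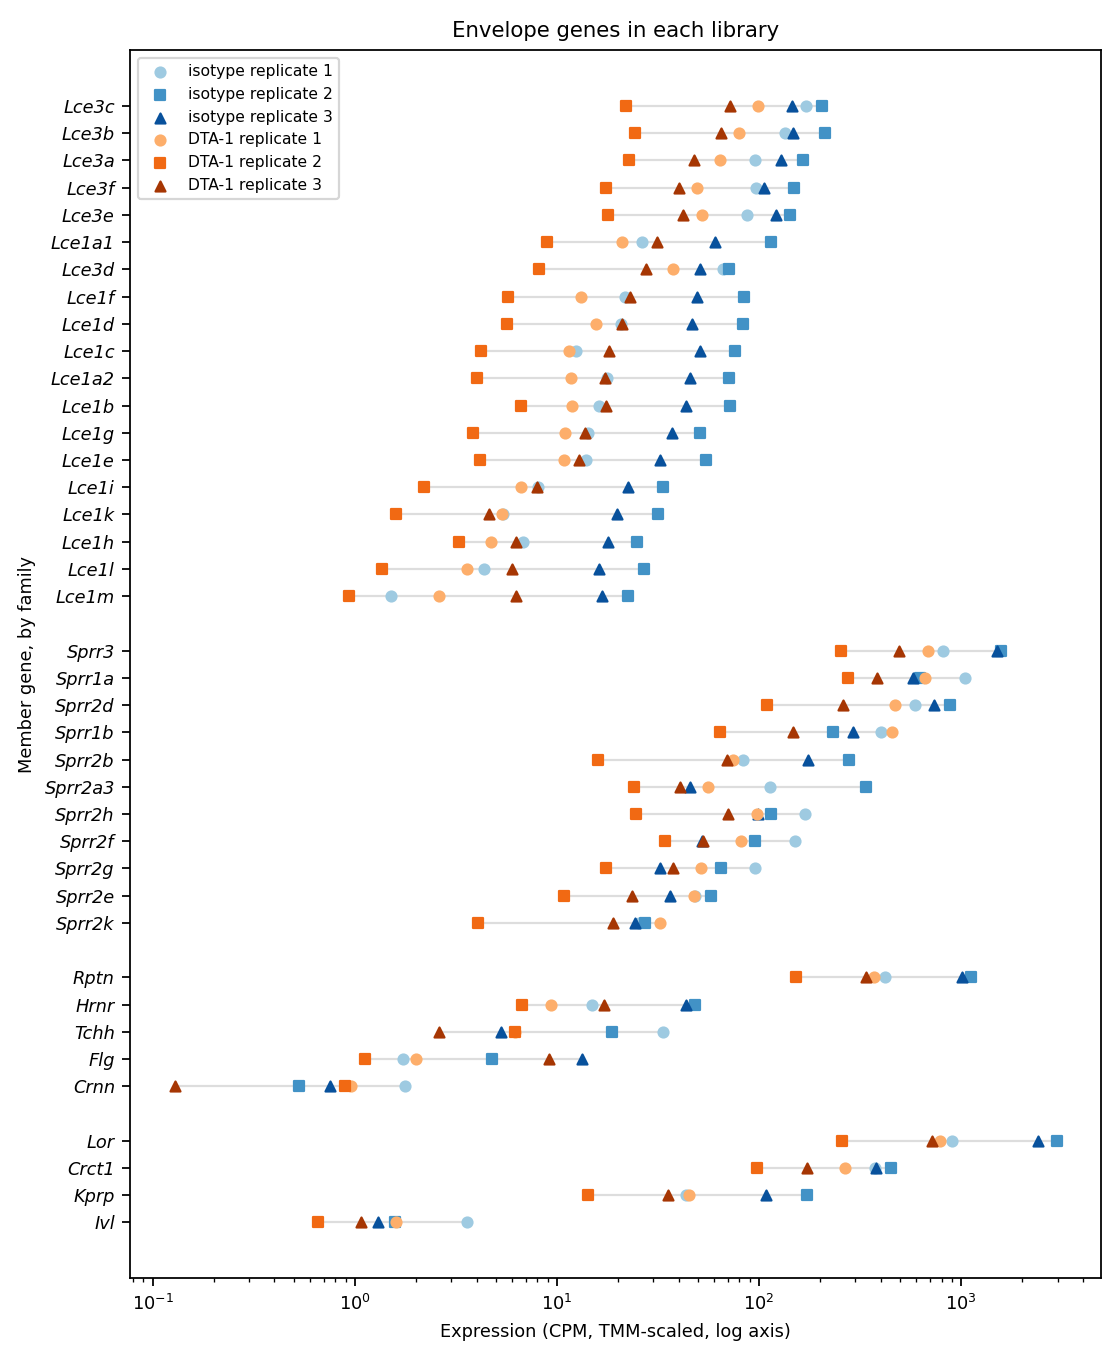
Level of each of the 39 tested members in the 6 libraries, in CPM on a log axis, blue for isotype and orange for DTA-1, with a grey line from the lowest to the highest library. DTA-1 replicate 2 is the leftmost point for 37 members, and isotype replicate 2 is the rightmost for 29.

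Levels can be compared between genes only per length of transcript. Per kb of exon, loricrin (Lor) led in isotype libraries at a mean of 1177 CPM per kb, followed by Sprr2d at 1079, Sprr3 at 1064 and Sprr1a at 929. With DTA-1 the same 4 genes stood at 330.2, 411, 391 and 546 CPM per kb, with Sprr1a now the highest. The spread between libraries of 1 group exceeded the gaps between these neighbours. Crct1 (508 with isotype), Sprr1b (371) and Lce3c (307) came next. The 13 Lce1 genes lay between 14.2 and 95.2 CPM per kb with isotype, and the large repeat proteins hornerin and filaggrin at 3.18 and 0.351.

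Loricrin, the glycine-rich protein that makes up much of the envelope's mass, is coded by Lor (chr3:92080271-92083142, minus strand, ENSMUSG00000043165). Lor stood at 905, 2972 and 2404 CPM with isotype and 783, 258 and 721 CPM with DTA-1. Isotype replicates 2 and 3 were far above the rest, and isotype replicate 1 lay only just above DTA-1 replicates 1 and 3, without overlap. The fold change was -1.83 ± 0.58 (log2 ± SE), with an adjusted p of 0.39 in edgeR and 0.0488 in DESeq2. DESeq2 also called Lor without isotype replicate 1 or DTA-1 replicate 1. It did not call Lor with any other library left out, nor when run on the genes tested by edgeR. Kprp, coding for a proline-rich protein of keratinocytes, stood at 43.7, 172 and 109 CPM with isotype and 45.1, 14.3 and 35.6 CPM with DTA-1. Here isotype replicate 1 lay inside the DTA-1 range, at 0.311 of the mean of the other isotype libraries. Crct1, a small cysteine-rich gene next to the Lce3 group, stood at 376, 451 and 381 CPM with isotype and 265, 97.4 and 172 CPM with DTA-1. Its 3 isotype libraries lay close together and all above the DTA-1 libraries, and its fold change was -1.17 ± 0.36. Ivl, the gene of the early scaffold protein involucrin, was low throughout, at 3.61, 1.58 and 1.30 CPM with isotype and 1.61, 0.658 and 1.07 CPM with DTA-1, with its highest value in isotype replicate 1 and overlap between the groups.

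The late cornified envelope genes code for short glycine- and cysteine-rich proteins that join the envelope late. Of 20 members 19 were tested, with a median fold change of -1.83. Of these, 18 had an unadjusted p under 0.05, against 7.52% of all genes on the lower side. All 19 were highest in isotype replicate 2 and lowest in DTA-1 replicate 2. The Lce3 group has human relatives known from the barrier response of skin and from psoriasis. The group showed no overlap in any of its 6 genes, against 9.36% of all genes with every DTA-1 library lower. The 6 genes share stretches of sequence, so the group does not give 6 independent cases. Its summed level was 649, 948 and 699.9 CPM with isotype and 382, 113 and 294 CPM with DTA-1.

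Lce3f (chr3:92992226-92993426, plus strand, ENSMUSG00000068885), the member with the smallest p, stood at 96.6, 149.6 and 105 CPM with isotype and 49.4, 17.5 and 40.3 CPM with DTA-1. Its lowest isotype library was above its highest DTA-1 library, and its isotype mean was 3.28 times its DTA-1 mean. The fold change was -1.71 ± 0.39, with an adjusted p of 0.39 in edgeR and 0.0105 in DESeq2. Lce3e, at 86.8, 143 and 122 CPM with isotype and 52.4, 17.8 and 42.0 CPM with DTA-1, had a fold change of -1.65 ± 0.40 and a DESeq2 adjusted p of 0.0239. Both kept a DESeq2 call when DTA-1 replicate 2 was left out, and these were the 2 calls of that fit. Neither gene was called in the fit lacking isotype replicate 2, where DESeq2 called 0 members. Lce3e and Lce3f also lost their calls once DTA-1 replicate 3 was dropped. Dropping any other single library kept both calls. Lce3a stood at 95.4, 165 and 129 CPM with isotype and 64.4, 22.7 and 47.6 CPM with DTA-1, with a DESeq2 adjusted p of 0.0334. Lce3b stood at 134, 213 and 148 CPM with isotype and 79.2, 24.4 and 64.5 CPM with DTA-1, with a DESeq2 adjusted p of 0.0435. In both, as in Lce3e and Lce3f, isotype replicate 1 was the lowest of the isotype libraries and still exceeded all DTA-1 values. Lce3c stood at 170.2, 206 and 145 CPM with isotype and 98.8, 22.0 and 71.7 CPM with DTA-1, and Lce3d at 66.6, 71.0 and 50.8 CPM with isotype and 37.5, 8.13 and 27.5 CPM with DTA-1. In these 2 genes isotype replicate 3 was the lowest of its group, and the DESeq2 adjusted p was 0.122 for Lce3c and 0.155 for Lce3d. Lce3c to Lce3f are near copies, with 35.7% to 49.3% of the 50-base stretches of their annotated exons found in another gene, so the split of reads among them is uncertain.

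The 13 Lce1 genes, the larger group, code for envelope proteins of the same build and had a median fold change of -1.89. Their summed level was 169, 746 and 459 CPM with isotype and 129.5, 52.7 and 186 CPM with DTA-1. The isotype group was divided, with replicate 1 below DTA-1 replicate 3 in the sum. Across the 13 genes isotype replicate 1 stood at 0.0773 to 0.326 of the mean of isotype replicates 2 and 3, with a median of 0.300. In 6 of the 13 the groups did not overlap, all by a narrow margin, against 9.36% of all genes. In the other 7 isotype replicate 1 fell among the DTA-1 libraries.

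The 6 without overlap were Lce1a2, Lce1e, Lce1g, Lce1h, Lce1i and Lce1k. Lce1h stood at 6.81, 24.9 and 17.9 CPM with isotype and 4.69, 3.29 and 6.24 CPM with DTA-1, with a fold change of -1.80 ± 0.50 and a DESeq2 adjusted p of 0.0385. Lce1k (chr3:92806291-92807891, minus strand) stood at 5.41, 31.5 and 19.9 CPM with isotype and 5.34, 1.60 and 4.62 CPM with DTA-1. It had the lowest fold change of all members, -2.29 ± 0.70, with a DESeq2 adjusted p of 0.0391, and isotype replicate 1 and DTA-1 replicate 1 differed by less than the spread within either group. Lce1a2 stood at 17.7, 71.4 and 45.6 CPM with isotype and 11.7, 4.04 and 17.4 CPM with DTA-1. Lce1e stood at 13.9, 54.9 and 32.4 CPM with isotype and 10.9, 4.18 and 12.8 CPM with DTA-1. In both, isotype replicate 1 sat just above DTA-1 replicate 3. Lce1g stood at 14.2, 50.8 and 37.0 CPM with isotype and 10.9, 3.85 and 13.8 CPM with DTA-1. Lce1i stood at 8.10, 33.5 and 22.5 CPM with isotype and 6.65, 2.21 and 7.95 CPM with DTA-1. The same narrow order held in these 2 genes.

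In the other 7 Lce1 genes the groups overlapped through isotype replicate 1. Lce1a1 stood at 26.3, 114 and 60.7 CPM with isotype and 21.1, 8.93 and 31.3 CPM with DTA-1. Lce1b stood at 16.2, 71.6 and 43.7 CPM with isotype and 11.8, 6.67 and 17.5 CPM with DTA-1. Lce1c stood at 12.4, 76.4 and 51.3 CPM with isotype and 11.5, 4.23 and 18.2 CPM with DTA-1. In all 3, isotype replicate 1 lay between DTA-1 replicates 1 and 3. Lce1d stood at 20.8, 83.0 and 46.5 CPM with isotype and 15.6, 5.64 and 21.03 CPM with DTA-1. Lce1f stood at 21.7, 84.2 and 49.1 CPM with isotype and 13.2, 5.73 and 22.9 CPM with DTA-1. Lce1l stood at 4.38, 27.1 and 16.2 CPM with isotype and 3.61, 1.36 and 6.03 CPM with DTA-1. The order was again the same, with isotype replicate 2 highest and DTA-1 replicate 2 lowest. Lce1m, at 1.51, 22.4 and 16.6 CPM with isotype and 2.61, 0.940 and 6.28 CPM with DTA-1, departed furthest, since isotype replicate 1 lay below both DTA-1 replicates 1 and 3, and its unadjusted p in edgeR was 0.0803. Of the Lce1 genes, Lce1m shares no 50-base stretch with another gene, and up to 27.1% of such stretches are shared in the rest.

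**Figure D2:**
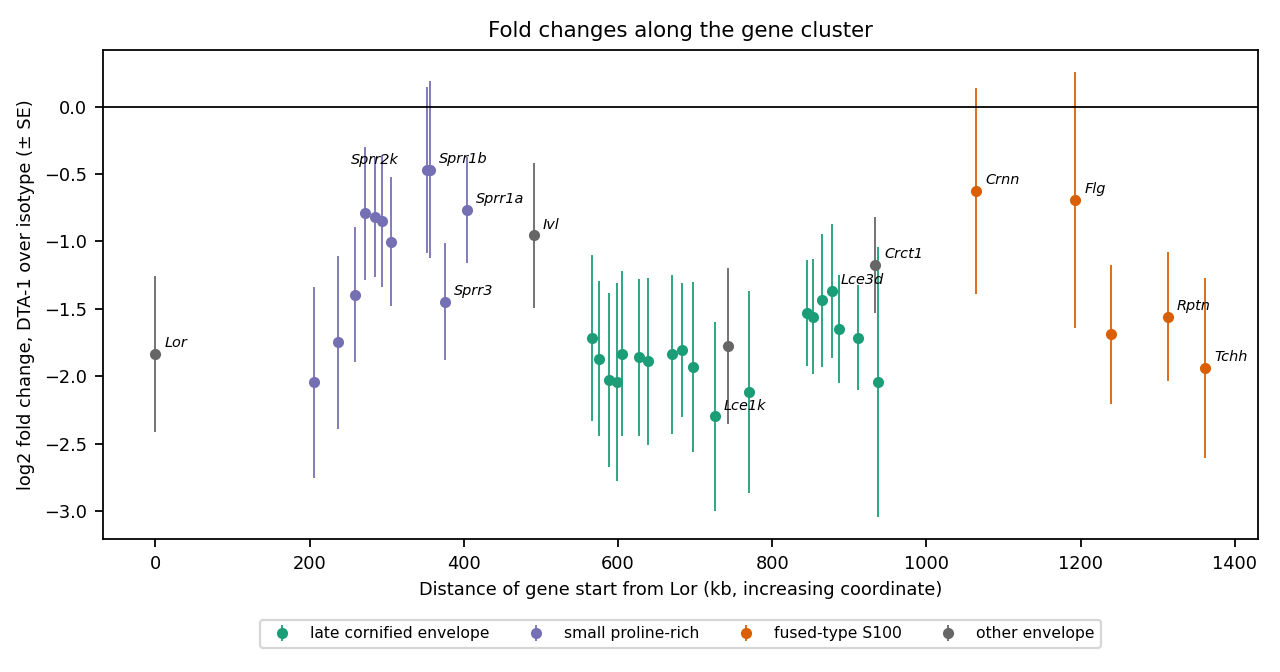
Fold change of the 39 tested members (log2 of DTA-1 over isotype, bars ± SE) against the distance of each gene's start from Lor in kb, coloured by family. All 39 points lie below 0, from -2.29 at Lce1k to -0.47 at Sprr1b.

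The small proline-rich genes code for crossbridging proteins of the envelope and are among its main components in the esophagus. Of 14 members 11 were tested, with a median fold change of -0.85. Of the 11, 4 had an unadjusted p under 0.05, against 7.52% of all genes on the lower side. No overlap was seen in 4, against 9.36% of all genes. Sprr3 (chr3:92456502-92458720, minus strand, ENSMUSG00000045539), a gene known for high expression in esophageal epithelium, stood at 811, 1583 and 1506 CPM with isotype and 683, 254 and 494 CPM with DTA-1. The groups did not overlap, and isotype replicate 1 lay nearer to DTA-1 replicate 1 than to the other isotype libraries. The fold change was -1.45 ± 0.43, with an adjusted p of 0.39 in edgeR and 0.0566 in DESeq2.

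Sprr1a and Sprr1b, whose products are also made in quantity by stressed and wounded squamous cells, followed another order. Sprr1a stood at 1048, 623 and 576 CPM with isotype and 661, 277 and 383 CPM with DTA-1, highest in isotype replicate 1, and DTA-1 replicate 1 lay above isotype replicates 2 and 3. Sprr1b stood at 401, 232 and 291 CPM with isotype and 457, 64.3 and 147 CPM with DTA-1, highest in DTA-1 replicate 1. Their fold changes were -0.77 ± 0.40 and -0.47 ± 0.65, and the unadjusted p values in edgeR were 0.0937 and 0.497. Together the pair took 23.5%, 7.93% and 9.96% of all member CPM in the isotype libraries and 23.7%, 22.2% and 15.7% in the DTA-1 libraries, so isotype replicate 1 lay with DTA-1 replicates 1 and 2 in this share. The 4 stress keratins Krt6a, Krt6b, Krt16 and Krt17, which squamous cells make on injury and when they proliferate, summed to 14423, 7899 and 5093 CPM with isotype and 13055, 1989 and 4550.1 CPM with DTA-1, highest in isotype replicate 1 and DTA-1 replicate 1. The part of these keratins' cells in the Sprr1 share was not tested.

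The 10 Sprr2 genes are close relatives in 1 block. Sprr2d (chr3:92339140-92340873, plus strand), the most abundant, stood at 589, 877 and 738 CPM with isotype and 469.7, 109 and 260.3 CPM with DTA-1, with no overlap and a fold change of -1.39 ± 0.50. Sprr2b stood at 82.9, 278 and 175 CPM with isotype and 74.6, 16.0 and 69.1 CPM with DTA-1, with no overlap and isotype replicate 1 close to the top DTA-1 library. Sprr2a3 stood at 113, 339.8 and 45.3 CPM with isotype and 55.9, 24.2 and 40.8 CPM with DTA-1. A single library, isotype replicate 2, was far above all others, and isotype replicate 3 lay inside the DTA-1 range. Of the 50-base stretches of Sprr2a3, 61.1% occur in other genes, mostly Sprr2a1, so its level is uncertain. Sprr2h stood at 169, 115 and 99.4 CPM with isotype and 97.2, 24.6 and 70.0 CPM with DTA-1, and its lowest isotype library was just above DTA-1 replicate 1. Its unadjusted p in edgeR was 0.0732.

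The remaining Sprr2 genes overlapped between the groups. Sprr2f stood at 150.0, 95.3 and 52.5 CPM with isotype and 81.9, 34.4 and 52.6 CPM with DTA-1. Sprr2g stood at 96.0, 64.6 and 32.2 CPM with isotype and 51.9, 17.5 and 37.7 CPM with DTA-1. Isotype replicate 1 was the highest library in both and in Sprr2h, at 2.03, 1.98 and 1.58 times the mean of the other isotype libraries. Sprr2e stood at 48.1, 57.9 and 36.4 CPM with isotype and 47.8, 10.8 and 23.6 CPM with DTA-1. Sprr2k stood at 25.4, 27.4 and 24.2 CPM with isotype and 32.4, 4.09 and 19.0 CPM with DTA-1, with the 3 isotype libraries near each other and the DTA-1 libraries on both sides of them. The fold change of Sprr2k was -0.47 ± 0.61, and it was 0.00206 when DTA-1 replicate 2 was left out.

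In the bases just before the start, 6 of 9 Sprr2 genes share a set of motifs, and the families differ in how often some motifs occur. RefSeq promoters (GRCm38.p6) were found for 41 of the 45 members, not for Lce1f, Sprr2g, Crct1 and Kprp. In each, 250 bases before the start were searched on both strands for 5 motifs. The first, TGANTCA, is the motif of AP-1 factors, and it was present in 15 of the 41 members and in 6.87% of 27025 promoters of the same length. The second, TATAAA, is the core of the TATA box, found in 19 members and in 13.0% of promoters. Of the 19, Lce6a and Lce3e matched only on the opposite strand, 218 and 243 bases before the start. The third, ATTTGCAT, is the octamer motif of POU factors, found in 6 members and in 1.61% of promoters. The fourth, TGACNNNGC, is the antioxidant response motif, found in 7 members and in 10.1% of promoters. The fifth, CACCC, is the short motif of Klf factors, found in 17 members and in 51.3% of promoters. Matches overlapped in 1 member, Sprr1a, where each of its 2 AP-1 matches shares letters with a match of the fourth or the fifth motif. All 6 members with the octamer were Sprr2 genes (Sprr2b, Sprr2d, Sprr2e, Sprr2f, Sprr2h and Sprr2k), and each of these also held the AP-1 motif and the TATA box. The combination was found in 13 of all promoters (0.0481%), these 6 included. The 6 are close relatives in 1 block, so they are not independent cases. The remaining Sprr2 genes searched, Sprr2a1, Sprr2a2 and Sprr2a3, held none of the 5 motifs. The AP-1 motif and the TATA box occurred together, without the octamer, in Sprr1a, Sprr1b, Lor, Ivl, Rptn, Crnn and Flg. By family, the AP-1 motif was in 6 of 9 Sprr2, 2 of 2 Sprr1, 5 of 7 fused-type S100, 0 of 12 Lce1 and 0 of 6 Lce3 genes. A match is a description of letters and not a site, and factor binding was not measured.

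The 200 bases before the start are printed for 8 genes, from the 5′ to the 3′ end on the gene's own strand, with the first 3 motifs in capitals. The first 3 are Sprr2 genes with different order of libraries (Sprr2d highest in isotype replicate 2, Sprr2h and Sprr2f in isotype replicate 1), which hold the same motifs at nearly the same distances. They lie at chr3:92338940-92339139, plus strand, chr3:92385485-92385684, plus strand, and chr3:92364987-92365186, plus strand.
Sprr2d: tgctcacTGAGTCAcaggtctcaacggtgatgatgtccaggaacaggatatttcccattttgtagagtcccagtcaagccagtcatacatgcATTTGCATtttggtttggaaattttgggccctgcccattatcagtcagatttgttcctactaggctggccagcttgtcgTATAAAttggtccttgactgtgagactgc
Sprr2h: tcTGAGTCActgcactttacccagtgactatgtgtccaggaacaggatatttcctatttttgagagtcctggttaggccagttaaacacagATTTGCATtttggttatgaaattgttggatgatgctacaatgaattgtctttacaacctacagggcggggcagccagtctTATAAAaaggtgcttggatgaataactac
Sprr2f: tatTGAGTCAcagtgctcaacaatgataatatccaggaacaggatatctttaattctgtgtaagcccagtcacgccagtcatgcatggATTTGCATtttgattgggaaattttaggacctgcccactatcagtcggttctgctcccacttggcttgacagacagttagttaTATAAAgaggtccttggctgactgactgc
In these 3 sequences the AP-1 motif begins 193, 198 and 197 bases before the start, the octamer 108, 109 and 112 bases before it, and the TATA box 29 bases before it in each. Sprr1a (chr3:92485882-92486081, minus strand), Lor (chr3:92083143-92083342, minus strand) and Rptn (chr3:93393499-93393698, plus strand) are shown as abundant members of other families, with the AP-1 motif and the TATA box and without the octamer.
Sprr1a: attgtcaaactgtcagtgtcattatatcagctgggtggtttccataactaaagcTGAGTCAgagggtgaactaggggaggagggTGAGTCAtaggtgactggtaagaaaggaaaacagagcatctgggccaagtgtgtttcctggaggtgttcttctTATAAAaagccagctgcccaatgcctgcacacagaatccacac
Lor: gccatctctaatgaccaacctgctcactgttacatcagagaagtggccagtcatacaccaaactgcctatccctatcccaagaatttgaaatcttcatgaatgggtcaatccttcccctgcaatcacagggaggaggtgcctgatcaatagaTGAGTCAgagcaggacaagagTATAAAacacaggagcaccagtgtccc
Rptn: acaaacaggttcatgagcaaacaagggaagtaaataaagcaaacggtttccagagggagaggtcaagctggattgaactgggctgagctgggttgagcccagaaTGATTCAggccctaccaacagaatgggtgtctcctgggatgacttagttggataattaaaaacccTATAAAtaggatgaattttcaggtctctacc
Sprr1a holds the AP-1 motif at 2 places, 146 and 116 bases before the start, Lor holds it at 48 bases and Rptn at 96 bases. Lce3f (chr3:92992017-92992216, plus strand) and Lce1h (chr3:92765066-92765265, minus strand), members that DESeq2 called, hold no exact match of these 3 motifs in this window. Both hold TATAAA with its first letter changed, which was not counted.
Lce3f: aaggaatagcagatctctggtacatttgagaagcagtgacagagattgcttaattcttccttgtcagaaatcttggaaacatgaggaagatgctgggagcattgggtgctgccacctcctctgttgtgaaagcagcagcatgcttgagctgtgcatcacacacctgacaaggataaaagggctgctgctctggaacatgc
Lce1h: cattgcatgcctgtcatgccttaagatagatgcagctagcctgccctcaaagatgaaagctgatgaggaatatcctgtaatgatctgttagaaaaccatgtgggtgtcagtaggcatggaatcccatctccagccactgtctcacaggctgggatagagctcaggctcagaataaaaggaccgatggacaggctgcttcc

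The fused-type S100 genes code for long repeat proteins that carry an S100 domain at one end and join keratin bundles to the envelope. Of 7 members 5 were tested, with a median fold change of -1.56. Rptn (chr3:93393699-93399442, plus strand, ENSMUSG00000041984), the gene of repetin, made up most of the family's reads and stood at 418, 1119 and 1006 CPM with isotype and 371, 153 and 339.7 CPM with DTA-1. The groups did not overlap, with isotype replicate 1 just above DTA-1 replicate 1, and the fold change was -1.56 ± 0.48. Hrnr, the gene of hornerin, stood at 14.98, 48.3 and 43.4 CPM with isotype and 9.34, 6.72 and 17.1 CPM with DTA-1, where isotype replicate 1 lay below DTA-1 replicate 3.

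Tchh codes for trichohyalin, a hardening protein of the hair follicle's inner root sheath and of tongue papillae. It stood at 33.5, 18.8 and 5.26 CPM with isotype and 6.21, 6.20 and 2.61 CPM with DTA-1, highest in isotype replicate 1, and isotype replicate 3 lay inside the DTA-1 range. The fold change was -1.94 ± 0.67. Of the 10 hair follicle keratins and markers, 9 were found, their sum was at most 1.81 CPM in any library, and Krt72 was 0 in all 6. Flg, the gene of filaggrin, which packs keratin filaments in skin, stood at 1.73, 4.78 and 13.3 CPM with isotype and 1.998, 1.128 and 9.10 CPM with DTA-1. The 2 highest libraries, isotype replicate 3 and DTA-1 replicate 3, came from different groups and were also those with the highest sum of the 4 epidermal keratins Krt1, Krt2, Krt10 and Krt77, at 628 and 584 CPM, against 89.7 to 438 CPM in the others. The fold change of Flg was -0.69 ± 0.95, and it was 0.35 without isotype replicate 3. Crnn codes for cornulin, a squamous protein abundant in human esophagus. It was low here, at 1.77, 0.527 and 0.756 CPM with isotype and 0.956, 0.893 and 0.128 CPM with DTA-1. Crnn had 48, 14 and 21 reads with isotype and 22, 19 and 3 with DTA-1, at the floor only in DTA-1 replicate 3. Its fold change was -0.63 ± 0.76, and 0.0412 without isotype replicate 1, so its direction rests on that library.

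6 members had too few reads to be tested. Sprr4 had 1, 1 and 1 reads with isotype and 3, 0 and 0 with DTA-1. Sprr2a2 had 7, 0 and 2 reads with isotype and 0, 1 and 0 with DTA-1, and Flg2 had 0, 1 and 4 against 0, 1 and 2. Each of these 3 reached the floor of 3 reads in 1 library alone, and no fold is given. Sprr2a1 had 8, 15 and 11 reads with isotype and 2, 1 and 4 with DTA-1, but 96.3% of its 50-base stretches occur in another gene, since its annotated model overlaps that of Sprr2a2. Lce6a had 6, 10 and 26 against 4, 3 and 7 reads, and Tchhl1 had 20, 16 and 1 against 8, 5 and 6, both with overlap.

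The mix of envelope transcripts differed between libraries of the isotype group as much as between the groups. The Sprr family took 57.4, 39.8 and 41.1% with isotype and 57.6, 54.3 and 47.3% with DTA-1 of all member CPM. Isotype replicate 1 stood with the DTA-1 libraries, above isotype replicates 2 and 3. Lor took 14.7%, 27.6% and 27.6% with isotype and 16.6%, 16.7% and 21.4% with DTA-1, the same split turned round. The Lce1 share was 2.75, 6.92 and 5.28% with isotype and 2.75, 3.42 and 5.51% with DTA-1, lowest in isotype replicate 1 and DTA-1 replicate 1. The Lce3 share moved less, at 10.6, 8.79 and 8.04% with isotype and 8.11, 7.31 and 8.70% with DTA-1. In isotype replicate 1, Krt4, Krt13, Krt24 and Krt78, the suprabasal keratins, summed to 14180 CPM, and in the other isotype replicates to 27887 and 32947 CPM. The 10 basal squamous markers summed to 17458 CPM there, against 9935 and 5224 CPM. The part of these differences in the split was not tested.

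**Figure D3:**
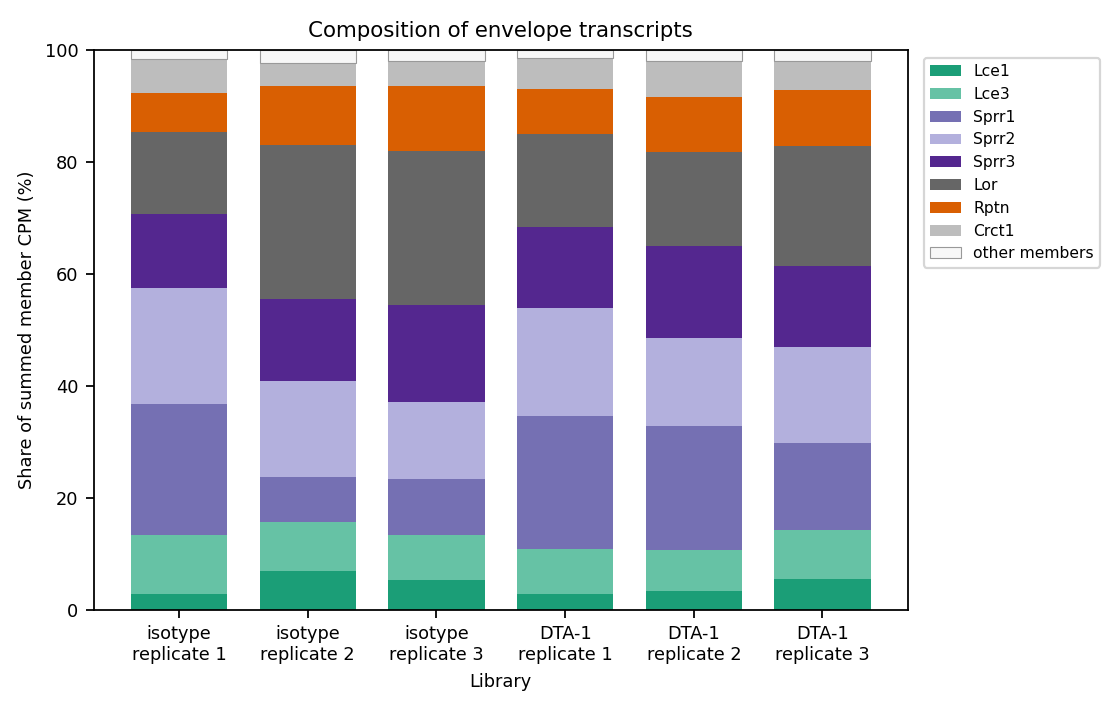
Share of summed member CPM (%) taken by the Lce1, Lce3, Sprr1 and Sprr2 genes, by Sprr3, Lor, Rptn and Crct1, and by the other members, as stacked bars for each library. Sprr1 takes 23.5% in isotype replicate 1 and 7.93% and 9.96% in isotype replicates 2 and 3, while Lor takes 14.7% against 27.6% in each of the other 2.

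Set against the sum of 5 keratins of the same library, the members showed no separation of the groups. Counts of all members per 1000 counts of 5 keratins (Krt4, Krt13, Krt5, Krt14 and Krt15) were 216, 307 and 238 with isotype and 188, 213 and 454 with DTA-1. The groups overlapped, and DTA-1 replicate 3 was the highest of all 6 libraries. The means were 254 ± 47.2 and 285 ± 147 (SD, n = 3 each). The 5 keratins themselves summed to 28453, 35119 and 36487 CPM with isotype and 25038, 7220 and 7437 CPM with DTA-1, so the low values were those of DTA-1 replicates 2 and 3. The order of the libraries changed with the keratins used. Per 1000 counts of the basal keratins Krt5, Krt14 and Krt15 the values were 428, 1444 and 2339 with isotype and 492, 578 and 926 with DTA-1. Per 1000 counts of the suprabasal pair Krt4 and Krt13 they were 437, 389.7 and 266 with isotype and 305, 338 and 891 with DTA-1. Isotype replicates 2 and 3 were high on the basal scale, and DTA-1 replicate 3 was high on the suprabasal one. For Lor the values per 1000 counts of the 5 keratins were 31.8, 84.6 and 65.9 with isotype and 31.3, 35.7 and 97.0 with DTA-1, and for Lce3 they were 22.8, 27.0 and 19.2 with isotype and 15.2, 15.6 and 39.5 with DTA-1, both with overlap.

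**Figure D4:**
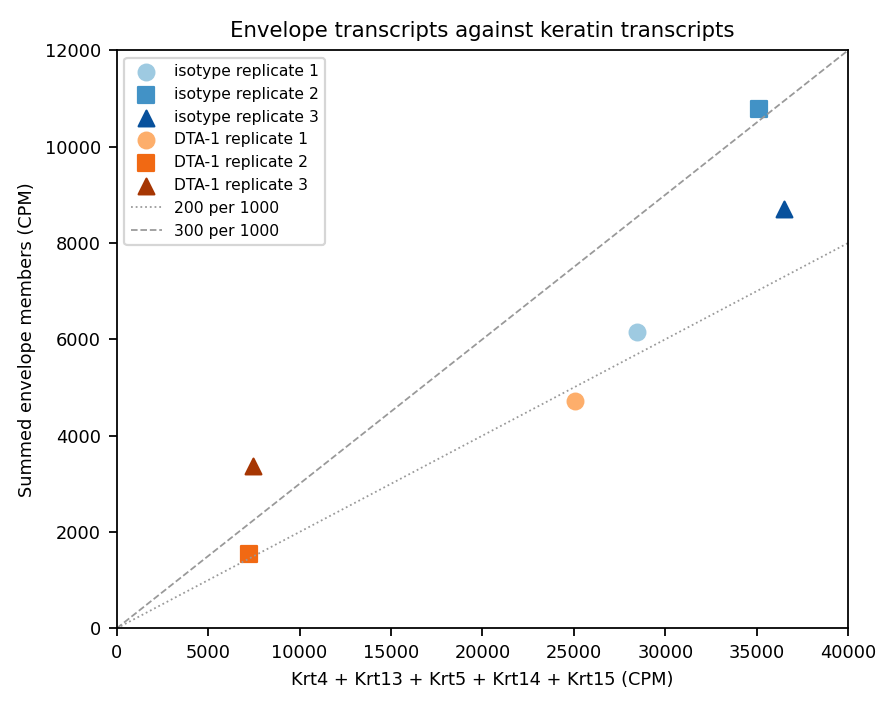
Summed level of the members (CPM) against the summed level of Krt4, Krt13, Krt5, Krt14 and Krt15 (CPM) in each library, with guide lines at 200 and 300 member counts per 1000 keratin counts. DTA-1 replicates 2 and 3 lie near 7220 and 7437 CPM of keratin, with 1541 and 3376 CPM of members, and DTA-1 replicate 1 lies at 25038 and 4710 CPM, beside isotype replicate 1 at 28453 and 6153 CPM.

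The genes that assemble and process the envelope lie outside the cluster. Of 21 crosslinking and scaffold genes 20 were tested and all 20 fold changes were negative (median -1.02). In 9 the groups did not overlap, against 9.36% of all genes. edgeR called 0 of them, with 11 at an unadjusted p under 0.05 on the lower side, against 7.52% of all genes. DESeq2 called 2, Calml3 and Asprv1, against 0.81%. Calml3, a calmodulin-like gene of squamous cells, stood at 307, 249 and 333 CPM with isotype and 71.0, 109 and 55.0 CPM with DTA-1, with a fold change of -1.92 ± 0.29 and a DESeq2 adjusted p of 2.0e-05. Asprv1, the protease that processes profilaggrin, stood at 251, 757 and 652 CPM with isotype and 141, 116 and 145 CPM with DTA-1, with a fold change of -2.05 ± 0.41 and a DESeq2 adjusted p of 0.00108. In both genes the 3 DTA-1 libraries lay well below every isotype library, and in Asprv1 isotype replicate 1 was again the lowest of its group. Cnfn, coding for the envelope protein cornifelin, averaged 691 ± 70.7 CPM with isotype and 314 ± 125 CPM with DTA-1, also without overlap. The transglutaminases that crosslink the members were Tgm1, at 354 ± 29.9 CPM with isotype and 182 ± 106 CPM with DTA-1, and Tgm3, at 1034 ± 336 CPM with isotype and 325 ± 282 CPM with DTA-1. Their edgeR adjusted p values were 0.391 and 0.39.

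Of 24 regulators known to act on envelope genes all were tested, 22 had negative fold changes and the median was -0.85. edgeR called 0 and DESeq2 0, with 6 at an unadjusted p under 0.05 on the lower side (7.52% of all genes) and 1 on the higher side in edgeR. The one on the higher side was Satb1, a chromatin organizer known to fold this cluster in epidermis, at 36.6, 28.3 and 36.6 CPM with isotype and 47.6, 62.5 and 55.5 CPM with DTA-1. All DTA-1 values were above all isotype values, as in 8.61% of genes, and the fold change was 0.71 ± 0.18. An unadjusted p under 0.05 on the higher side was found for 5.21% of all genes. Notch1, a receptor that promotes squamous differentiation, stood at 42.6, 62.8 and 59.6 CPM with isotype and 41.1, 24.6 and 23.1 CPM with DTA-1, and Hopx, a homeodomain protein of differentiating keratinocytes, at 195, 165 and 91.0 CPM with isotype and 85.2, 82.2 and 76.2 CPM with DTA-1. Both were without overlap, by a narrow margin. Of the 24, the groups did not overlap in 7 on the lower side, against 9.36% of all genes, and in 2 on the higher side, against 8.61%. Klf4, a factor needed for the skin barrier, averaged 259.6 ± 51.3 CPM with isotype and 167 ± 102 CPM with DTA-1, and Nfe2l2, the NRF2 factor of the oxidative stress response, 267 ± 70.5 CPM with isotype and 197 ± 54.9 CPM with DTA-1. Their edgeR adjusted p values were 0.498 and 0.493. Krt5, the basal keratin, averaged 3173 ± 1657 CPM with isotype and 1787 ± 1116 CPM with DTA-1, with an edgeR adjusted p of 0.513.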

How the data were processed

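The authors deposited whole-number read counts per Ensembl gene, 1 file a library, as raw values. Build mm10 and the tools STAR, cutadapt 1.13, DESeq2 1.14.1 and HTSeq 0.6.1p1 are named per the submitters' processing notes. Their roles and the strand setting remain not given in the sources used here, so reads of overlapping or near-identical genes are uncertain. The filterByExpr filter (count of at least 10, total of at least 15) kept 15763 genes. After TMM scaling these were tested in edgeR 4.0.16 (R 4.3.3) by quasi-likelihood with robust estimation, treatment being the only term, all 6 libraries in the fit and Benjamini-Hochberg adjustment over all genes at 0.05. Alternatives were limma-voom (limma 3.58.1) and DESeq2 1.42.0, beside other scalings and filters, a replicate block and each library left out in turn. DESeq2 refits and the counts of genes without overlap with a library left out were added after the data were seen. The steps were also run on counts simulated gene by gene from each gene's mean level and its spread in edgeR. Those counts held no library that stood apart, so they cannot speak to the changes with 1 library left out. Levels per kb use exon lengths of GENCODE release M21, which also gave gene positions. A gene was described by its value in each library where it was among the 3 most abundant of its family, had an unadjusted p under 0.05 or a DESeq2 call, or had 3 or more reads in 1 library alone. Krt5, Krt13, Krt4, Tgm1, Tgm3, Klf4, Nfe2l2 and the 3 genes with the smallest p of the crosslinking and regulator lists were added, and other members were described after their values were seen. Members and lists were chosen with earlier results of these data known. Floors cover counting error only. Counts of members in each library carry no error of their own, and precision comes from 3 libraries a group.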

Additional observations from a re-analysis of the deposited data

How the results depend on the processing

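The number of genes past the threshold was 0 in edgeR and 177 in DESeq2. With 1 library left out the edgeR number ran from 0 to 601, the highest without DTA-1 replicate 1. DESeq2 without that library called 1604 of 15401 genes on the lower side alone. Members called were 0 in every edgeR fit and with limma-voom, and 7 in DESeq2, against 0.81% of all genes called lower. DESeq2 run on the genes tested by edgeR called 6 of these 7, without Lor. The share of all genes in that fit was not computed. Leaving out 1 library in DESeq2 gave 0 to 27 members, against 0.195% to 10.4% of all genes. None of the 3 called without DTA-1 replicate 3 was among the 7. With 1 library left out, members at an unadjusted p under 0.05 in edgeR ran from 10 without isotype replicate 2 to 28 without DTA-1 replicate 1. Of all genes, 3.5% and 15.2% were there on the lower side in those fits. Members without overlap numbered 19 to 28 with 1 library left out, while 11.0% to 25.2% of all genes had no overlap in that direction. The median of the members ran from -1.86 to -1.28, and was -1.83 under scaling by library totals alone, which moved the median of all genes to -0.19. For fused-type S100 genes the median was -0.71 without a filter and -1.66 to -1.08 with 1 library left out. Member counts per 5 keratins had a log2 ratio of 0.17, which was -1.08 with basal keratins, 0.49 with suprabasal keratins and -0.34 to 0.39 with 1 library left out. Of 893 values of 39 members under all alternatives, 887 were negative. The other 6 were Sprr2k without DTA-1 replicate 2 (0.00206, DESeq2 0.0134, lowest with another library left out -1.15), Flg without isotype replicate 3 (0.35 in both, lowest -2.07) and Crnn without isotype replicate 1 (0.0412, DESeq2 0.0544, lowest -1.00). The cause was not tested.

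The labels do not say whether the replicate numbers pair the libraries. Deviations of same-numbered libraries from their group means had r of 0.0167, -0.333 and -0.0864 across genes. Deviations from a group's own mean are tied to each other, so these r values cannot show whether the numbers pair libraries. With the replicate number as a block, edgeR called 0 genes and 0 members, with 20 members at an unadjusted p under 0.05 on the lower side against 7.35% of all genes, and DESeq2 with the block called 13 members against 1.93% of all genes. At these depths 3 reads equal 0.108 to 0.141 CPM, and the 6 members with the fewest reads were not tested.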

Other observations

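Other genes lie between the members. Of 42 annotated genes inside the cluster that are not members, 11 had enough reads to be tested, all 11 had negative fold changes, and their median was -1.78 on the log2 scale. In 4 of them all DTA-1 libraries were lower than all isotype libraries, against 9.36% of all genes, and 5 had an unadjusted p under 0.05 in edgeR on the lower side, against 7.52%. DESeq2 called 0, against 0.81%. Isotype replicate 2 was the highest library in 5 of the 11. They include the Sprr2 relative Sprr2i, at 303 ± 56.9 CPM with isotype and 131 ± 102 CPM with DTA-1 (SD, n = 3 each), and Lce1j, at 13.9 ± 8.59 and 3.11 ± 1.69 CPM. Gm35439, a predicted gene, stood at 1.18 ± 0.578 against 0.311 ± 0.016 CPM without overlap. These genes were chosen after their values were seen, and reads they share with members were not separated.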
